A study of Homo sapiens with 9 samples.

Results

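The genes described here are the subunits of the AP-1 transcription factor and their close partners, 10 genes of the 58735 in the deposited table. They were chosen by name, with earlier results of these data known, and all 10 had a row: the 4 FOS family genes FOS, FOSB, FOSL1 and FOSL2, the 3 JUN family genes JUN, JUNB and JUND, the stress-induced factor ATF3, and the 2 small MAF genes MAFF and MAFK. For short, all 10 are called subunit genes below, although the 2 small MAF genes are listed as partners. The 9 samples are RNA of KHM-5M cells kept for 24 h in the vehicle DMSO or in 0.3 μM or 1 μM of YK-4-279, a small-molecule inhibitor of ETS family transcription factors, with 3 samples in each group. KHM-5M is an established human thyroid cancer cell line, and every group is this same line. The methods speak of 2 biological replicates for the RNA sequencing and, for the in vitro assays in general, of 3 independent experiments. The labels give 3 samples per group, and whether these 3 were separate cultures is not stated. P-values therefore measure only the spread between these samples, which may be technical.

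AP-1 is a dimer of leucine zipper proteins that binds a short palindromic DNA element. FOS proteins cannot pair with one another and need a JUN partner, whereas JUN proteins can also form dimers without FOS. Growth factor signals through the MAP kinases and cellular stress are known to raise the transcription of several of these genes within minutes, and phosphorylation of the proteins sets their activity and stability. FOSL1 protein is known to be stabilized by sustained ERK signalling and is abundant in many invasive carcinomas. MAFF and MAFK are leucine zipper proteins without an activation domain of their own, which act through partners such as the CNC family. RNA levels, as measured here, say nothing of protein level or phosphorylation.

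Between 16903251 and 18238884 reads were assigned to genes per sample, and a gene with no read could still hold 3 counts, which is 0.164 to 0.177 CPM (counts normalised to library size) and covers counting error only. Of the markers of the thyroid lineage, the transcription factor PAX8 had 2742 to 3660 counts in the 9 samples, while TG, TSHR and SLC5A5, which mark the differentiated follicular cell, had 0 to 4. The intermediate filament genes KRT8 (22002 to 24344 counts) and VIM (39355 to 46284) were both abundant, and CDH1 had 0 to 5 counts. Of the 7 markers of immune, endothelial and fibroblast cells, 6 had 0 to 8 counts in every sample, and COL1A1, a collagen gene used as a fibroblast marker, had 5579 to 9593. COL1A1 was itself called lower at 1 μM against DMSO (log2 fold change -0.41, standard error 0.10, adjusted p = 0.0132), with overlapping samples, and its part in the values below was not tested. Replicate 3 of the 0.3 μM group stood apart from its group in 52 genes by more than 2-fold and replicate 2 of the DMSO group in 48, against 17 to 44 in the other 7 samples. Results that rest on these samples are given with and without them.

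Reference sequence from upstream of the start site is shown as a description of the genes. It covers the 7 genes whose promoter window held a searched core promoter or CRE-type motif. These are not the genes that rose at 1 μM: FOSB and ATF3 did not pass that test, and FOSL1, which did, had no window. A link between these letters and the changes in RNA was not tested. The segments are RefSeq sequence of GRCh38.p14, each 30 bases on the strand of the gene and written 5′ to 3′. Capitals mark the letters TATAAA (the TATA box), CCAAT, TGACATCA and TGACGTCA (variants of the cAMP response element, which ATF and JUN dimers can bind). They lie at chr14:75278783-75278812 for FOS, chr19:45467951-45467980 for FOSB, chr19:12791441-12791470 for JUNB, chr1:58784107-58784136 for JUN, chr19:18281804-18281833 for JUND, chr1:212565273-212565302 for ATF3 and chr22:38201929-38201958 for MAFF, with JUN and JUND on the minus strand and the others on the plus strand.
FOS: taaaacgcttgtTATAAAagcagtggctgc
FOSB: ggcgggtcccgggcaTATAAAtacaggctg
JUNB: gctgactagcgcggTATAAAggcgtgtggc
JUN: agCCAATgggaaggccttggggTGACATCA
JUND: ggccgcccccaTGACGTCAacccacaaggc
ATF3: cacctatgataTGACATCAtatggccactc
MAFF: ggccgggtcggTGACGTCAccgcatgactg
RefSeq windows of 300 bases (250 before the start and 50 after it) were held for 8 of the 10 genes, not for FOSL1 or MAFK, and both strands were searched. Counted from the start, TATAAA began at base -33 in FOS, -30 in FOSB and -31 in JUNB, and at -230 in a second window of ATF3. The letters were anywhere in 11.5% of the 35116 windows of all genes, a share of single windows, while some of the 8 genes had more than 1 window. TGACATCA was found in JUN (from base -67) and ATF3 (from -123) and in 2.61% of all windows. TGACGTCA was found in JUND (from -200) and MAFF (from -54) and in 1.85%. The AP-1 element TGANTCA was found in FOSL2 alone of the 8 genes, starting at base 5 after the start, and in 7.71% of all windows. CCAAT was found in 5 of the 8 genes and in 34.6% of all windows. The ETS-type sequence CCGGAAG was in none of the 8 and in 10.3% of all windows. The CArG box of serum response factor was in none of the 8 and in 1.29%. Only this form of ETS site was searched, and shorter forms were not. Letters more than 250 bases before the start lay outside the windows, so their absence there is not shown. A match is a description of these letters and not evidence of binding. The start used by RefSeq lies 280 bases inside the deposited JUN gene, 54 inside FOS, 410 inside FOSL2, 73 inside ATF3 and 1227 inside MAFF. The second start lies 49684 bases inside ATF3 and 2253 inside MAFF.

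In DMSO, the levels of the subunits spanned more than 2 orders of magnitude. Levels are compared between genes as FPKM, the authors' count scaled by gene length and library size, and each is a mean ± SD over 3 samples. FOSL1 was the most abundant at 193 ± 17.8 FPKM, with a median rank of 157 among all genes, followed by JUN at 83.3 ± 6.15 and JUND at 65.2 ± 15.7. JUNB (29.9 ± 1.42) and FOSL2 (24.2 ± 1.11) came next, then MAFK (8.37 ± 0.801), MAFF (7.49 ± 0.460) and ATF3 (3.69 ± 0.404), and last FOS (0.725 ± 0.168) and FOSB (0.409 ± 0.119). Between neighbours in this order, the ranges of JUN and JUND overlapped and so did those of MAFK and MAFF, and no other pair of neighbours overlapped. FOS, the gene for which the family is named, stood far below FOSL1 in these cells.

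Compared with DMSO, 1 μM of YK-4-279 raised 6 of the 10 subunit genes: FOS, FOSL1, JUN, JUNB, JUND and MAFF. None fell. A gene was called when its adjusted p was under 0.05 by edgeR (quasi-likelihood F-test), adjusted after Benjamini and Hochberg over all 15617 genes tested. Over all of those genes, 7.67% were called higher and 9.95% lower. With a change of over 1.5-fold required as well, 4 of the 10 were called higher (FOS, FOSL1, JUNB and MAFF), against 1.37% of all genes. The log2 fold change was above 0 in all 10, against 48.7% of all genes, and its median was 0.56 over the 10 genes and -0.01 over all genes. In each of the 10, all 3 treated samples lay above all 3 DMSO samples by CPM, as in 21.1% of all genes. Without replicate 1 of the DMSO group, FOSB, FOSL2 and MAFK passed as well (adjusted p = 0.0248, 0.0384 and 0.0288), which made 9 of 10. The median was then 0.65, and in that sample 9 of the 10 genes lay above the mean of the other 2 DMSO samples. Without replicate 2 of the DMSO group the same 6 passed and the median was 0.47. Without replicate 2 of the 1 μM group, 5 passed and the median was 0.54. The share of all genes called in these fits is not given here. In a bulk sample, more RNA per cell and more cells that express a gene cannot be told apart.

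**Figure D1:**
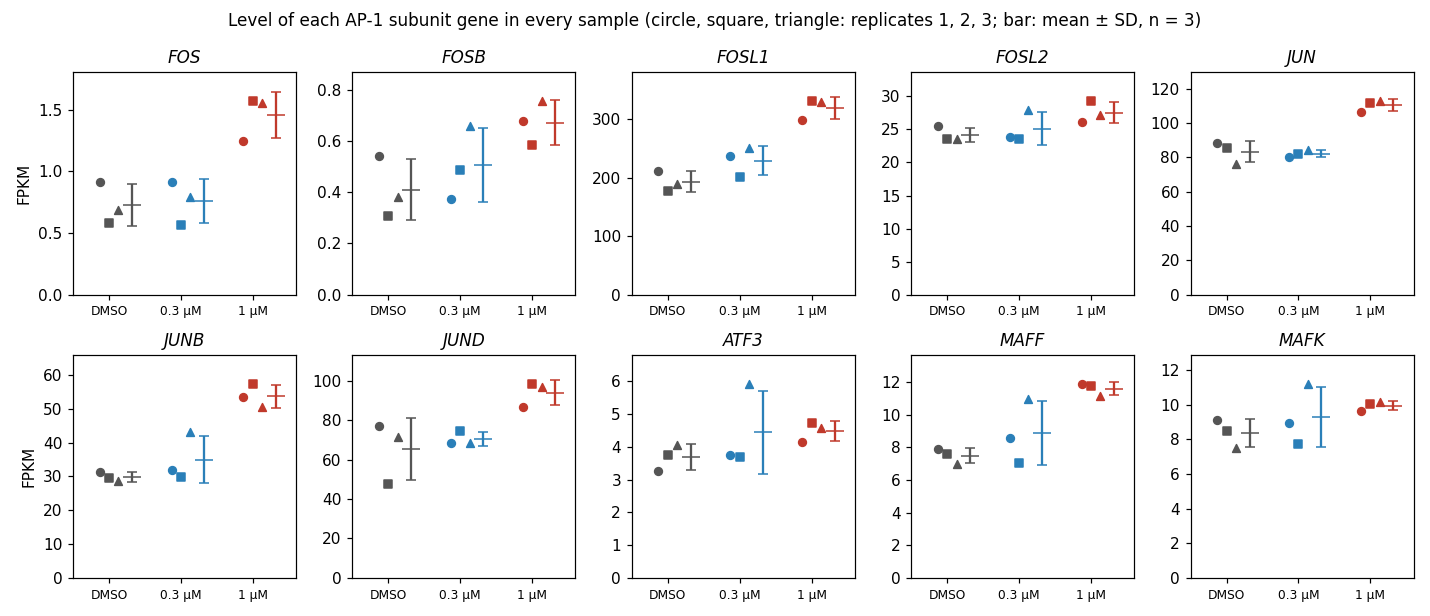
FPKM of each of the 10 genes (vertical axes, each from 0) in the 3 DMSO, 3 0.3 μM and 3 1 μM samples, with the mean ± SD beside them. The 1 μM samples sit above all DMSO samples in every panel, and replicate 3 of the 0.3 μM group (triangle) stands above its group in JUNB, ATF3, MAFF and MAFK.

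FOS (ENSG00000170345, chromosome 14 from 75278774 to 75282230) encodes the prototype of the family, a protein that is normally made in a short burst after stimulation. It had 51, 34 and 38 counts in the DMSO samples, 53, 33 and 45 at 0.3 μM and 74, 88 and 85 at 1 μM. In FPKM these were 0.910, 0.579 and 0.688, then 0.916, 0.562 and 0.794, then 1.24, 1.57 and 1.55. The 1 μM samples lay above both other groups without overlap, while the DMSO and 0.3 μM samples interleaved. The rise at 1 μM was 1.98-fold, a log2 fold change of 0.98 (standard error 0.22, adjusted p = 0.00719), the largest of the 10 genes in log2 units and the one that rests on the fewest counts among those called. It ranked 75 among the 1198 genes called higher, by size of the log2 fold change. At 0.3 μM the log2 fold change was 0.06 (standard error 0.27, adjusted p = 0.995).

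FOSB (ENSG00000125740), whose product can also pair with JUN proteins and is known as another early response gene, had 52, 31 and 36 counts in DMSO, 37, 49 and 64 at 0.3 μM and 69, 56 and 71 at 1 μM. The highest DMSO sample came within 4 counts of the lowest 1 μM sample. Its log2 fold change at 1 μM was 0.70 (standard error 0.24), close to that of FOSL1 in size, but it did not pass the test (adjusted p = 0.0621). At 0.3 μM it was 0.30 (standard error 0.28). The whole FOSB gene, 7185 bases on chromosome 19 from 45467995 to 45475179, lies within ERCC1 on the opposite strand. ERCC1 had a mean count of 1098 over the 9 samples against 51.7 for FOSB and a log2 fold change of 0.03. The library kit named in the methods keeps strand, but whether strand was used in counting is not given in the sources used here, so reads of the 2 genes may not be separated.

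FOSL1 (also called FRA1, ENSG00000175592, chromosome 11 from 65892049 to 65900573, minus strand) was the main FOS family transcript in every sample. It had 212, 177 and 190 FPKM in DMSO, 236, 201 and 250 at 0.3 μM and 298, 331 and 330 at 1 μM, from 6047 to 10819 counts per sample. The 1 μM samples lay above all others, and the lowest 0.3 μM sample lay within the DMSO range. The rise at 1 μM was 1.64-fold, or 0.71 on the log2 scale (standard error 0.07, adjusted p = 2.5e-05), with an unadjusted edgeR p of 7.04e-08. Its median rank among all genes went from 157 in DMSO to 128 at 0.3 μM and 83 at 1 μM. At 0.3 μM the log2 fold change was 0.25 (standard error 0.08), with an unadjusted p of 0.00967 that did not survive adjustment (adjusted p = 0.995). FOSL1 is one of the genes that the study picked for display from these same samples.

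FOSL2 (ENSG00000075426, chromosome 2 from 28392448 to 28417312), the other FOS-related antigen and the second FOS family transcript by level, had the smallest log2 fold change of the 10 genes at 1 μM. Its values were 25.5, 23.5 and 23.5 FPKM in DMSO, 23.8, 23.6 and 28.0 at 0.3 μM and 26.1, 29.3 and 27.3 at 1 μM. The 1 μM samples lay just above the DMSO samples, and replicate 3 of the 0.3 μM group lay among them. It was 0.17 (standard error 0.06), which did not pass the test (adjusted p = 0.0734). The call depended on the method, since DESeq2 gave an adjusted p of 0.0378.

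JUN (ENSG00000177606, chromosome 1 from 58780788 to 58784327), the partner of FOS in the classical dimer, had 88.1, 85.3 and 76.3 FPKM in DMSO, 80.3, 82.0 and 84.2 at 0.3 μM and 106, 112 and 113 at 1 μM. The 0.3 μM samples all fell inside the DMSO range, and the 1 μM samples lay above every other sample. The rise at 1 μM was 1.31-fold (log2 0.39, standard error 0.06, adjusted p = 0.000896). At 0.3 μM the log2 fold change was -0.02 (standard error 0.07), the only value below 0 among the 10 genes at that dose.

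JUNB (ENSG00000171223, chromosome 19 from 12791496 to 12793315), a JUN family member that is known to restrain JUN at some promoters, had 31.5, 29.6 and 28.7 FPKM in DMSO, 32.01, 30.0 and 43.1 at 0.3 μM and 53.5, 57.3 and 50.6 at 1 μM. The DMSO samples were tightly grouped, replicates 1 and 2 at 0.3 μM were at or near their range, and replicate 3 lay between the groups. JUNB had the smallest adjusted p of the 10 genes at 1 μM (9.51e-06), with a 1.78-fold rise (log2 0.83, standard error 0.07). HOOK2 overlaps the whole of JUNB on the opposite strand, with a mean count of 336 against 1269 for JUNB. The log2 fold change of HOOK2 was -0.17 (adjusted p = 0.252).

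JUND (ENSG00000130522, chromosome 19 from 18279760 to 18281622), the JUN family member known for a steady level in resting cells, had 76.9, 47.4 and 71.3 FPKM in DMSO, 68.3, 74.5 and 68.5 at 0.3 μM and 86.6, 98.2 and 96.8 at 1 μM. Replicate 2 of the DMSO group was far below the other 2, with 1600 counts against 2482 and 2265. The rise at 1 μM was 1.42-fold (log2 0.51, standard error 0.13, adjusted p = 0.0138) with all samples and 0.33 on the log2 scale (adjusted p = 0.00163) without that DMSO sample. The call was lost in DESeq2 (adjusted p = 0.0674) and without replicate 2 of the 1 μM group (adjusted p = 0.0564). Against the 0.3 μM samples, which include no such low value, the log2 fold change was 0.41 (standard error 0.07, adjusted p = 0.00081).

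**Figure D2:**
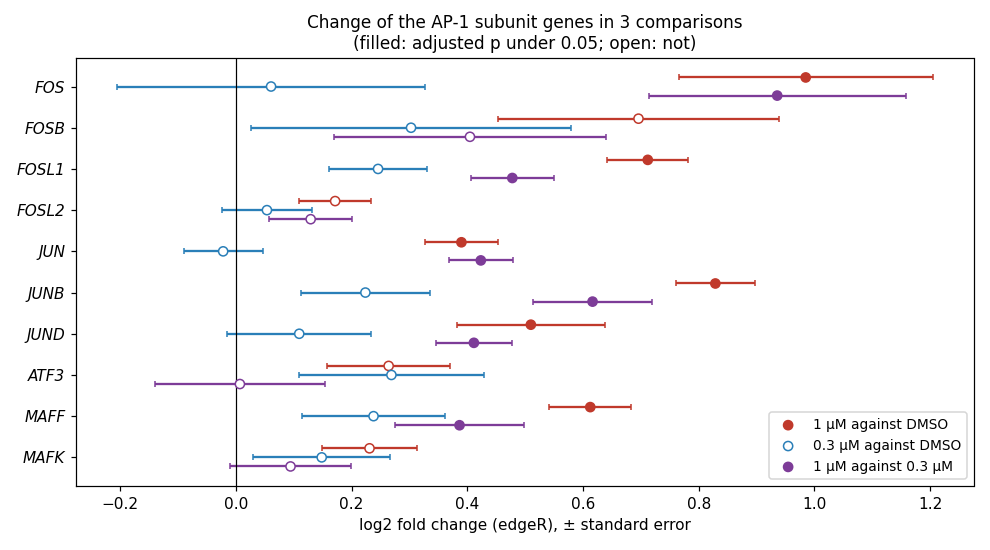
Log2 fold change of each gene (horizontal axis, edgeR estimate ± standard error) in the 3 comparisons, with filled points where the adjusted p was under 0.05. At 1 μM against DMSO and at 1 μM against 0.3 μM the same 6 genes are filled, and at 0.3 μM against DMSO every point is open.

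ATF3 (ENSG00000162772, chromosome 1 from 212565334 to 212620777), a stress-induced factor that pairs with JUN proteins and is known mostly as a repressor, had 3.26, 3.74 and 4.06 FPKM in DMSO, 3.74, 3.70 and 5.91 at 0.3 μM and 4.15, 4.72 and 4.58 at 1 μM. The highest value of all 9 samples was in the 0.3 μM group, in replicate 3. The log2 fold change was 0.26 (standard error 0.11, adjusted p = 0.103) at 1 μM and 0.27 (standard error 0.16) at 0.3 μM, and neither passed the test. Without that replicate, the value at 0.3 μM was 0.01.

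MAFF (ENSG00000185022, chromosome 22 from 38200767 to 38216511), a small MAF protein, had 7.90, 7.59 and 6.99 FPKM in DMSO, 8.56, 7.05 and 10.95 at 0.3 μM and 11.9, 11.8 and 11.2 at 1 μM. All 3 samples at 1 μM exceeded all others, although replicate 3 of the 0.3 μM group came close. The rise at 1 μM was 1.53-fold (log2 0.61, standard error 0.07, adjusted p = 7.82e-05). PLA2G6, which overlaps 4924 bases of MAFF on the opposite strand, had a mean count of 139 against 921 for MAFF and a log2 fold change of -0.39 (adjusted p = 0.0952).

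MAFK (ENSG00000198517, chromosome 7 from 1530714 to 1543043), the other small MAF gene, had 9.09, 8.50 and 7.51 FPKM in DMSO, 8.96, 7.73 and 11.2 at 0.3 μM and 9.64, 10.04 and 10.1 at 1 μM. Its log2 fold change of 0.23 at 1 μM (standard error 0.08) did not pass the test (adjusted p = 0.0661). TMEM184A overlaps 809 bases of MAFK on the opposite strand, with a mean count of 40.4 against 722. The order of the small MAF pair differed between groups: in DMSO MAFK lay above MAFF on average with overlapping ranges, and at 1 μM MAFF (11.6 ± 0.384 FPKM) lay above MAFK (9.94 ± 0.268) in all 3 samples without overlap. At 1 μM no 2 neighbours in the order of the 10 genes overlapped.

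At 0.3 μM, none of the 10 genes was called by edgeR or by DESeq2, and the share of all 15762 genes tested that was called higher was 0.0%. Before adjustment, 1 of the 10 (FOSL1) had a p under 0.05, against 3.77% of all genes. The log2 fold change was above 0 in 9 of the 10, against 50.3% of all genes, with a median of 0.19 over the 10 and 0.00 over all genes. None of the 10 had its 3 treated samples all above the DMSO samples, against 4.24% of all genes. This median moved with the samples left out. It was 0.04 without replicate 3 of the 0.3 μM group and 0.15 without replicate 2 of the DMSO group, with 7 of the 10 above 0 in each case, and 0.30 without replicate 2 of the 0.3 μM group, with 9 above 0. Without replicate 3 of the 0.3 μM group, the value of JUNB went from 0.22 to 0.05, that of MAFF from 0.24 to 0.06 and that of FOSB from 0.30 to 0.07, while FOSL1 went from 0.25 to 0.18.

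In replicate 3 of the 0.3 μM group, 9 of the 10 subunit genes lay above the mean of the other 2 samples of the group. The same count held for replicate 1 of the DMSO group and replicate 2 of the 1 μM group. The differences in the 0.3 μM sample were 0.67 on the log2 scale for ATF3, 0.62 for FOSB, 0.49 for MAFF, 0.47 for JUNB and 0.42 for MAFK. DDIT3, a stress-induced factor of the CCAAT/enhancer-binding family that was picked out after its values were seen, had 822 counts in it against 181 to 273 in the other 8 samples. Its difference from the mean of the other 2 samples of the group was 1.88 on the log2 scale. ATF4, which is known to activate DDIT3 and ATF3 under stress, lay 0.35 above them, and the AP-1 repressor JDP2 0.71. The part of this sample's stress genes in the 0.3 μM values was not tested.

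**Figure D3:**
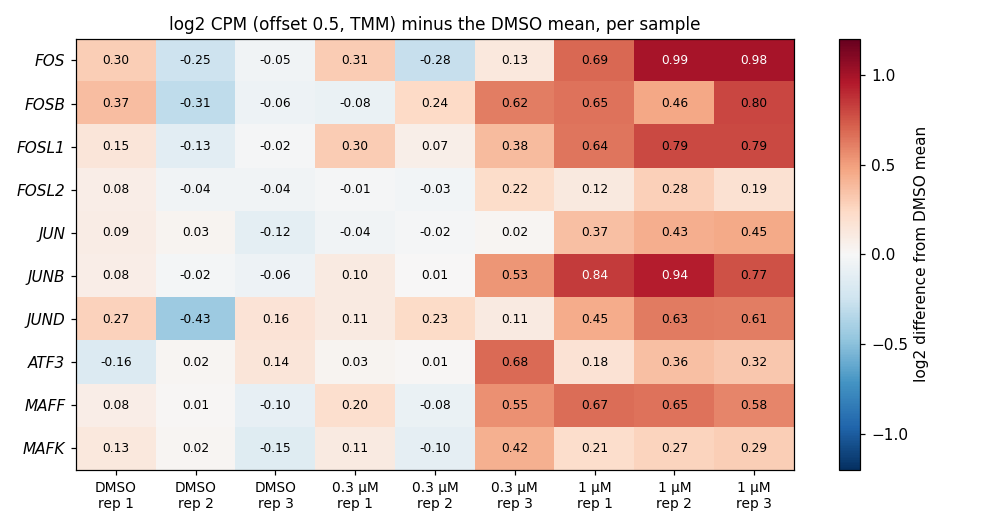
Log2 CPM of each gene minus its DMSO mean (colour and printed value, rows are genes and columns the 9 samples). Red marks values above the DMSO mean, which fill the 1 μM columns, and the column of 0.3 μM replicate 3 is redder than the other 2 of its group in most rows.

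Compared with 0.3 μM, 1 μM raised the same 6 genes: FOS (log2 fold change 0.94, standard error 0.22), JUNB (0.62, standard error 0.10), FOSL1 (0.48, standard error 0.07), JUN (0.42, standard error 0.06), JUND (0.41, standard error 0.07) and MAFF (0.39, standard error 0.11). Adjusted p-values from edgeR were between 0.000146 for JUN and 0.0308 for MAFF. None fell. Over the 15583 genes tested, 5.85% were called higher and 6.75% lower. With the 1.5-fold cutoff, 2 of the 10 were called (FOS and JUNB), against 0.86% of all genes. The 3 samples at 1 μM lay above all 3 at 0.3 μM in these 6 genes and in no other of the 10, as in 17.0% of all genes. The median over the 10 was 0.41. FOSB (0.40), FOSL2 (0.13), MAFK (0.09) and ATF3 (0.01) did not pass the test. The comparison shares the 1 μM samples with that against DMSO and is not independent of it.

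The call of MAFF between the doses was lost when any 1 sample was left out, except replicate 3 of the 0.3 μM group, with adjusted p-values of 0.0602 to 0.138. Without that replicate the MAFF value was 0.56 (adjusted p = 0.00015), that of JUNB was 0.79, and FOSL2 (0.21) also passed (adjusted p = 0.0373). The FOS call was lost without replicate 2 of the 0.3 μM group (adjusted p = 0.0536).

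The makeup of the FOS family in RNA was dominated by FOSL1 at every dose. Summed FPKM of the 4 FOS family genes was 218 ± 19.1 in DMSO, 255 ± 27.4 at 0.3 μM and 349 ± 20.1 at 1 μM (mean ± SD, n = 3), and that of the 3 JUN family genes was 178 ± 17.2, 188 ± 7.61 and 258 ± 10.6. These sums and the shares from them are described without a test. FOSL1 made up 88.7%, 87.8% and 88.5% of FOS family FPKM in the DMSO samples, 90.4%, 89.1% and 89.5% at 0.3 μM and 91.4%, 91.3% and 91.8% at 1 μM. The 3 ranges did not overlap. FOSL2 made up the mirror image, from 11.1 ± 0.537% in DMSO to 7.89 ± 0.266% at 1 μM, while FOS and FOSB together made up the small rest.

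Within the JUN family the makeup was more even and its shifts were nearer the spread. JUN made up 46.9 ± 4.96% of JUN family FPKM in DMSO and 42.8 ± 0.840% at 1 μM, and JUND 36.2 ± 6.16% and 36.4 ± 1.09%. JUNB went from 16.8 ± 1.23% to 20.9 ± 1.24%, and its lowest share at 1 μM (19.4%) lay above its highest in DMSO (18.3%). The JUND share in DMSO was 39.1%, 29.2% and 40.4%, the low value being the sample with few JUND counts. The FOS family took 55.0 ± 0.271% of the FPKM of both families in DMSO, 57.6 ± 2.45% at 0.3 μM and 57.5 ± 0.517% at 1 μM.

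**Figure D4:**
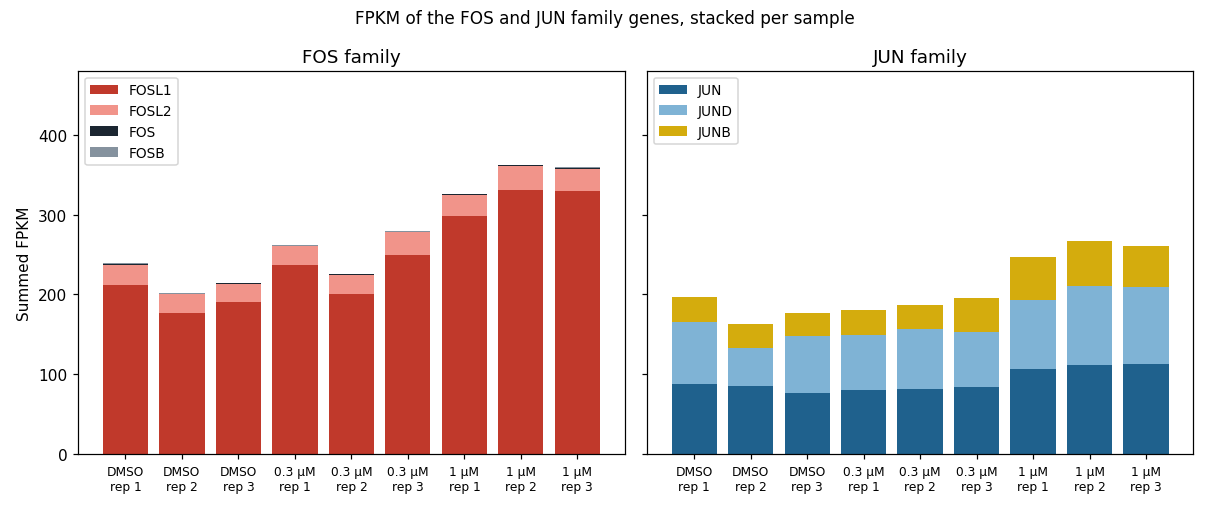
FPKM of the 4 FOS family genes (left) and the 3 JUN family genes (right) stacked per sample on a linear axis from 0. FOSL1 fills most of each FOS family bar, FOS and FOSB are too low to be seen at this scale, and the 1 μM bars are the tallest in both panels.

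Genes whose pattern was most like that of each called subunit were found among 12297 protein-coding genes, by the root mean square difference of log2 CPM relative to the DMSO mean over the 9 samples. For MAFF the nearest were SQSTM1 (0.054), DUSP1 (0.096) and KLHL18 (0.097). The nearest to FOSL1 were SLC9B2 (0.056), CSRNP1 (0.089) and CDKN1A (0.093), and those to JUN were SOX9 (0.064), COA7 (0.068) and TRIM58 (0.069). JUNB had IER3 (0.107), FOSL1 (0.127) and H1F0 (0.128), so the second nearest of all genes was another subunit. JUND had MAPK8IP2 (0.055), ZNHIT2 (0.107) and SLC6A8 (0.107). Of these, SLC6A8 was called at 1 μM, and MAPK8IP2 and ZNHIT2 were not (adjusted p by edgeR = 0.0714 and 0.113). The JUND value of DMSO replicate 2 was -0.43 relative to the DMSO mean, and the part of that sample in the likeness was not tested. For FOS, whose low counts scatter more, RHOB (0.143), SOCS1 (0.150) and PHLDA2 (0.154) were nearest.

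The wider pathway was read from lists of genes around AP-1. Of 30 AP-1 target genes known from the literature, 23 were tested and 15 rose at 1 μM, with none called lower. The 7 left untested for low counts were MMP1, MMP3, MMP9, MMP10, MMP13, CCL2 and IVL, with 0 to 20 counts per sample. The values at 1 μM against DMSO therefore leave out all matrix metalloproteinase genes of the list. Over all genes, 7.67% were called higher and 9.95% lower. The median log2 fold change was 0.36, against -0.01 over all genes. The largest rises were those of the cytokine IL6 (1.93, standard error 0.24, adjusted p = 0.000127), the EGF receptor ligand EREG (1.43, standard error 0.16, adjusted p = 6.17e-05) and the chemokine CXCL8 (1.31, standard error 0.12, adjusted p = 1.71e-05). Counts of IL6 ranged from 33 to 61 in DMSO and from 145 to 272 at 1 μM, those of EREG from 54 to 63 and from 138 to 189, and those of CXCL8 from 1349 to 1584 and from 3009 to 4853. These 3 were the only ones of the 15 with a change of over 1.5-fold, where 1.37% of all genes were called higher with that cutoff. Many of the 30 also answer to other factors such as NF-kB, and CXCL8 was among the genes that the study picked for display, so their rise is not independent evidence about AP-1. At 0.3 μM none of the 23 was called by edgeR or DESeq2. There 1 of the 23 had an unadjusted edgeR p under 0.05, which is near the share of all genes, 3.77%. At 1 μM against 0.3 μM, 12 of 24 were called higher and none lower, where 5.85% of all genes were called higher and 6.75% lower.

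Of 31 other genes of the same leucine zipper superfamily, 25 were tested at 1 μM, where 6 rose and 2 fell, with a median of 0.12, where 7.67% of all genes were called higher and 9.95% lower. BATF2, which pairs with JUN proteins, rose by 0.91 (standard error 0.22, adjusted p = 0.0118), from 35 to 50 counts in DMSO to 68 to 106. CEBPD and CEBPB, factors of acute phase and inflammatory genes, rose by 0.78 (standard error 0.07, adjusted p = 1.44e-05) and 0.50 (standard error 0.06, adjusted p = 0.000186). ATF4 and ATF7 fell by 0.22 each on the log2 scale (adjusted p = 0.0106 and 0.0489). No gene of the list was called lower with all 9 samples in the fit, without DMSO replicate 3 or without 1 μM replicate 1, and 1 was with DESeq2, with RLE size factors, without a filter and with the replicate number as a block. Neither DDIT3 nor JDP2 was called. The count of 8 fell to 2 without DMSO replicate 3 and to 4, 5 and 5 without each sample of the 1 μM group.

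Lists of genes that act on AP-1 were read in the same way, with no test of a difference between lists. In the MAP kinase route, with all 28 listed genes tested, 4 rose at 1 μM, 1 fell and the median was 0.05, where 7.67% of all genes were called higher and 9.95% lower. NRAS (0.41, adjusted p = 0.000601), MAP2K3 (0.40, adjusted p = 0.0126) and the JNK route kinase MAP3K11 (0.36, adjusted p = 0.0218) were the largest rises, and the p38 kinase MAPK11 fell by 0.45 (adjusted p = 0.0062). The count of 5 was 8 without DMSO replicate 2 and 3 without 1 μM replicate 2. Of 16 regulators of the FOS and JUN promoters, 3 rose and none was called lower, with a median of 0.12. They were MEF2A (0.33, adjusted p = 0.00445) and the ETS factors ETS1 (0.19, adjusted p = 0.0336) and ELK3 (0.17, adjusted p = 0.044). A single one of the 3 was left without DMSO replicate 3, without 1 μM replicate 1 or without 1 μM replicate 3. Among 10 genes of JUN protein turnover, the ubiquitin ligase scaffold CUL1 alone was called (0.23, adjusted p = 0.0116), and the median was 0.04. A single call in 10 is near the share of all genes called. The largest difference in this list was that of DET1, part of a ubiquitin ligase complex for JUN, which is named after its values were seen. It had 24 to 39 counts in DMSO, 16 to 23 at 0.3 μM and 13 to 18 at 1 μM, and its log2 fold change at 1 μM, -0.94 (standard error 0.31), did not pass the test (adjusted p = 0.0527). The count of calls in the list was 2 without DMSO replicate 1, DMSO replicate 2 or 1 μM replicate 1, and 0 without DMSO replicate 3 or 1 μM replicate 3. At 0.3 μM none of the genes of these 3 lists or of the other leucine zipper genes was called by edgeR or DESeq2, and none had an unadjusted p under 0.05 by edgeR.

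**Figure D5:**
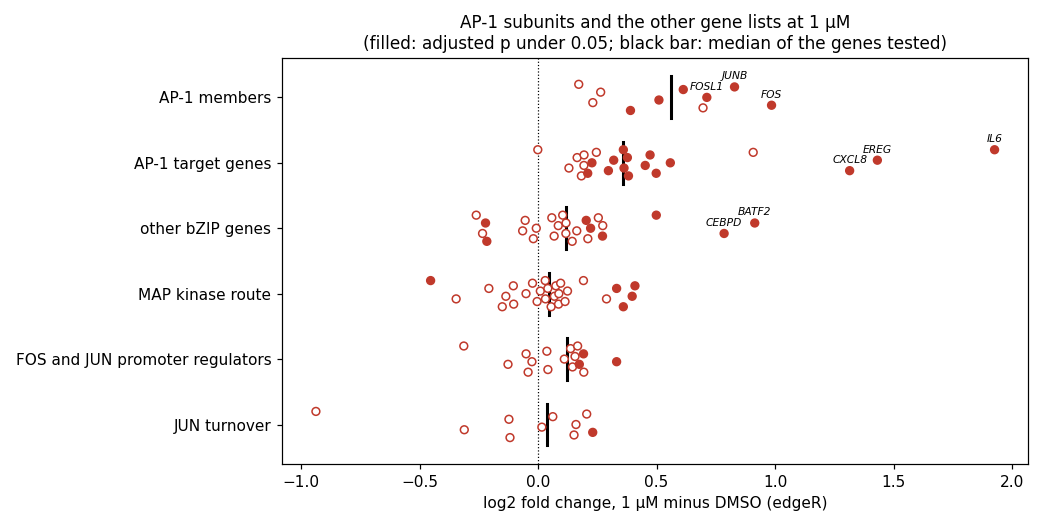
Log2 fold change at 1 μM against DMSO (horizontal axis) of every tested gene in the AP-1 subunit list and the 5 surrounding lists, filled where the adjusted p was under 0.05, with a bar at each list's median. The medians of the subunits (0.56) and of the target genes (0.36) lie to the right of those of the other 4 lists (0.04 to 0.12).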

How the data were processed

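The authors aligned reads to GRCh38 and deposited 1 table with raw read counts per gene, gene length and FPKM, besides group means, fold changes and p-values of their own comparisons, which were not used. The submitters' processing notes name HISAT2 2.0.5, featureCounts 1.5.0-p3 and DESeq2 1.20.0, and the methods name HTseq for counting. FPKM times length returned the deposited counts, with denominators -0.776% to 2.38% from the column totals. Counts were tested per pair of groups with edgeR 4.0.16 (R 4.3.3, filterByExpr at a minimum count of 10, TMM, quasi-likelihood) and Benjamini-Hochberg adjustment, called at an adjusted p under 0.05. Steps were tested on simulated data. Log2 CPM for the likeness of patterns used an offset of 0.5 CPM.

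The members and gene lists were chosen with earlier results of these data known. Named were the 10 members, up to 3 called genes per list and direction with the largest change at 1 μM (mean of at least 1 CPM), marker genes, and the 3 genes nearest in pattern to each called member. Alternatives were DESeq2 1.42.0, RLE size factors, no filter, all 9 samples in a fit, the replicate number as a block, protein-coding genes only, a 1.5-fold cutoff, shares from CPM, and each sample left out.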

Additional observations from a re-analysis of the deposited data

How the results depend on the processing

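Besides leaving out samples, none of the 6 alternative fits changed the direction of a subunit gene's log2 fold change in any comparison. At 1 μM the calls were the 6 given in the report except that JUND was lost in DESeq2, where FOSL2 was gained, and that FOSB, FOSL2 and MAFK were gained without a filter (9 called). The replicate number as a block left 6, 0 and 6 subunit genes called at 1 μM, at 0.3 μM and between the doses, and 2120, 1 and 1768 of all genes against 2752, 0 and 1963. The main fit did not pair same-numbered samples, whose deviations had correlations of -0.09 to 0.16. At 0.3 μM against DMSO every sample correlated best with its own number (0.16, 0.11 and 0.04). In the other comparisons not every sample did. At 0.3 μM, 1004 of all genes had an unadjusted edgeR p under 0.05 with the block, against 594 without it. Under the block the other leucine zipper genes called were 5 at 1 μM and 5 between the doses, the promoter regulators 1 and 0, and the MAP kinase genes 3 between the doses. A 1.5-fold cutoff left 2 subunit genes called between the doses, 2 and 1 other leucine zipper genes (at 1 μM and between the doses), 3 and 4 target genes, and 0 and 0 in each of the MAP kinase, promoter regulator and JUN turnover lists. All 9 samples in the fit gave 4 other leucine zipper genes at 1 μM. Without a filter these were 1 at 0.3 μM and 8 between the doses, and the JUN turnover genes 3 at 1 μM, where DESeq2 gave 2, as it did between the doses. From CPM in place of FPKM, which gives longer transcripts more weight, the FOSL1 share of the FOS family differed from DMSO by 7.42 percentage points at 1 μM and 2.82 at 0.3 μM, the FOSL2 share by -7.62 and -2.82, and the FOS family share of both families by 1.41 at 1 μM.

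Leaving out 1 sample at a time, the subunit genes called were 5 to 9 at 1 μM, 0 to 0 at 0.3 μM and 4 to 7 between the doses, the target genes 12 to 15 and 8 to 13, the other leucine zipper genes 2 to 8 and 1 to 5, the MAP kinase genes 3 to 8 and 1 to 5, the promoter regulators 1 to 2 and 0 to 2, and the JUN turnover genes 0 to 2 and 0 to 2. Signs turned only in small differences that passed no test. Over the samples left out, the log2 fold change at 0.3 μM ranged from -0.098 to 0.26 for FOS (below 0 without DMSO replicate 2 or 0.3 μM replicate 1), from -0.028 to 0.0998 for FOSL2 and from -0.0041 to 0.27 for MAFK (both below 0 without 0.3 μM replicate 3), from -0.080 to 0.023 for JUN (above 0 without DMSO replicate 1) and from -0.073 to 0.25 for JUND (below 0 without DMSO replicate 2). Between the doses it ranged from -0.11 to 0.26 for ATF3 (below 0 without replicate 1 or 2 of the 0.3 μM group or replicate 2 or 3 of the 1 μM group) and from -0.022 to 0.24 for MAFK (below 0 without 0.3 μM replicate 2). The cause of these changes was not tested. FOS and FOSB rest on 31 to 88 counts per sample, which limits the precision of their values.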
